A study of Mus musculus with 4 samples.

Results

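NF-κB subunits and their inhibitors were examined in dendritic cells of the mouse spleen, 24 h after injection of the dioxin TCDD or of its solvent. The set holds 10 genes taken by symbol: the Rel-family subunit genes Nfkb1, Nfkb2, Rel, Rela and Relb, and the inhibitor genes Nfkbia, Nfkbib, Nfkbie, Bcl3 and Tnfaip3. All probe sets that the platform's annotation assigns to 1 of these symbols alone were taken. This gave 13 of the 22626 probe sets tested, for 9 of 10 genes among 12393 genes with a probe set of their own. No probe set was matched to Nfkb1, which was not analysed here. Nfkbia had 4 probe sets, Nfkb2 had 2, and 7 genes had 1 each.

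NF-κB is a family of dimeric transcription factors that resting cells hold in the cytoplasm, bound to IκB proteins. Kinases activated by Toll-like, cytokine or TNF-family receptors mark the IκB proteins for degradation, and the freed dimers enter the nucleus and switch on inflammatory, survival and antigen presentation genes. Among those targets are the genes of the inhibitors themselves, which closes a negative feedback loop. In dendritic cells the pathway drives maturation. TCDD is a ligand of the aryl hydrocarbon receptor (AhR), a transcription factor for which physical contact with Rel proteins has been described.

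The TCDD group received 10 µg/kg TCDD in corn oil by intraperitoneal injection and the DMSO group received DMSO in corn oil, each 24 h before the cells were isolated. All mice were female C57BL/6, aged 8 to 12 weeks, with 3 mice per group. Spleens were pooled, and dendritic cells were taken from them by centrifugation through BSA and then by magnetic sorting, to a purity of over 90%, which leaves room for other cells. Amplified RNA was hybridised to Affymetrix arrays, 2 per group, labelled biological replicates 1 and 2. The labels do not say whether the 2 arrays of a group came from different mice, so p-values measure only the spread between these arrays. In pooled cells, fewer cells of a type and less RNA per cell cannot be told apart.

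The values are RMA signals on the log2 scale, where a difference of 1 is a 2-fold change. The level of 1 probe set cannot be set against that of another. Array medians ran from 5.9 to 6.0. Of 13 measured dendritic cell markers, 12 were above the dim threshold of 5.525, the 40th percentile of mean levels. Among them the class II chain gene H2-Aa read 13.0 and 12.9 in TCDD arrays and 13.3 and 12.9 in DMSO arrays. By the brightest probe set of each gene, 3625 of 12393 genes were dim. Of macrophage and monocyte markers 0 of 14 were dim, and of neutrophil markers 1 of 9. Being above the threshold thus cannot tell dendritic cells from other cells. Xcr1 was dim. In TCDD arrays 5 of the 13 lay below both DMSO arrays, where 19.4% of all genes did, and the list had a median difference of -0.50. All 13 differences were below 0, where 6091 of 12393 genes were so. The widest without overlap were Sirpa (-1.05), Cd24a (-0.90) and Zbtb46 (-0.65), with adjusted p from 0.349 to 0.444. That of H2-Aa was -0.15. Of the 8 with a DMSO mean from 7 to 10, 4 lay lower, where 35.7% of all genes in that range did. TCDD replicate 1 stood apart in 2 ways. Its Gapdh control signal was 3.6 log2 units stronger at the 3′ end than in the middle, against 2.0 in TCDD replicate 2 and 1.5 and 2.1 in DMSO arrays. Its neutrophil markers were also high: log2 levels of the 9 measured markers summed to 67.2, against 54.2 in TCDD replicate 2 and 55.5 and 52.0 in DMSO arrays. Of these markers 3 of 9 lay above both DMSO arrays in both TCDD arrays, and Lcn2 was dim. The neutrophil gene S100a8 stood at 10.3 and 5.6 in TCDD arrays and at 6.4 and 5.9 in DMSO arrays. S100a9 stood at 9.6 and 5.3 in TCDD arrays and at 6.4 and 5.6 in DMSO arrays. These genes made up much of the higher sum. Elane was not higher in TCDD replicate 1, at 6.5 and 6.6 in TCDD arrays and 6.6 and 6.6 in DMSO arrays. Each member is therefore also given with each array left out where this changes its direction or its size by over 1.5 times.

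NF-κB is known to act on genes of its own subunits and inhibitors, so the start windows of the 4 genes with a probe set whose groups did not overlap are shown before the values. Windows run from 250 bases before to 50 bases after each annotated start and come from RefSeq on build GRCm38.p6; 8 of the 10 genes matched, with 11 windows, and Nfkb1 and Relb did not match. Capitals mark matches to the 10-base NF-κB consensus, which is 3 G, a purine, any 2 bases, 2 pyrimidines and 2 C, on either strand. The Tnfaip3 window lies at chr10:19015361-19015660 on the minus strand, the Nfkbie window at chr17:45555450-45555749 on the plus strand, the Nfkbia window at chr12:55492598-55492897 on the minus strand and the Rela window at chr19:5637291-5637590 on the plus strand.
Tnfaip3: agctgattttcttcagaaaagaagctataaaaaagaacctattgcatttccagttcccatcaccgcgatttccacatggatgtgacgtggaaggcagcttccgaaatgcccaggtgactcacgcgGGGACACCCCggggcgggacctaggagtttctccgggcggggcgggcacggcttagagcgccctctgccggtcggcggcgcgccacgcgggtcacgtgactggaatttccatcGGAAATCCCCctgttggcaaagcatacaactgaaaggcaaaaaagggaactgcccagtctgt
Nfkbie: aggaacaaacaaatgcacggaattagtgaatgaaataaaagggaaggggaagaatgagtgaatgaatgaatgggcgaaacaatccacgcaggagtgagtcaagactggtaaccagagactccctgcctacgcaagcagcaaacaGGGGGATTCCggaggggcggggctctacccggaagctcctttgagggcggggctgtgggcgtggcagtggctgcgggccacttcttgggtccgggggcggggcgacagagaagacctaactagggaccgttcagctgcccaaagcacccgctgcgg
Nfkbia: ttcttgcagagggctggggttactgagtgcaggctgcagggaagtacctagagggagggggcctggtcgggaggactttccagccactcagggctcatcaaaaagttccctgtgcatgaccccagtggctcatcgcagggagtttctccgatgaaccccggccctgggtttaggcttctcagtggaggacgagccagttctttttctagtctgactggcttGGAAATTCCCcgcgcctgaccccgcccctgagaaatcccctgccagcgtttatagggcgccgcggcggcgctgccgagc
Rela: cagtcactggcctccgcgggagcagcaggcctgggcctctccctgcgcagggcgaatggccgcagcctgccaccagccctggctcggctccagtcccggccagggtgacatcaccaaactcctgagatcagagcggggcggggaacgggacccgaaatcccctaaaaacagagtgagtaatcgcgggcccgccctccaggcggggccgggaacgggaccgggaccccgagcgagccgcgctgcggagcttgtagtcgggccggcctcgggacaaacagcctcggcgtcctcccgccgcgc

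The consensus was found in 8 of 11 member windows, against 8.46% of 32841 windows of the same length over all genes. By gene it was 6 of 8, against 9.55% of all genes. In Nfkbia it was GGAAATTCCC, read on the opposite strand, 29 bases before the start. In Nfkbie it was GGGGGATTCC, 106 bases before the start. Tnfaip3 held GGGACACCCC, which fits on both strands, and GGAAATCCCC 12 bases before the start in 1 of its 2 windows. The other matches were in Rel (GGGAAATCCC), Bcl3 (GGGAAGTCCC) and Nfkb2, whose later windows overlap and share GGGACTTTCC. Rela and Nfkbib had no match in these windows. A stricter spelling contained in the consensus has 3 G, an A, any 2 bases, 2 T and 2 C. It occurred in windows of 2 of 8 member genes (Nfkbia and Nfkb2), against 1.63% of all genes in the table. By window it was 3 of 11, against 1.47% of all windows. The core of the dioxin response element, GCGTG on either strand, to which AhR binds, occurred in windows of 4 of 8 genes (Nfkb2, Rel, Nfkbie and Tnfaip3), against 35.2% of all genes in the table. A match describes letters in the window and is not evidence of binding.

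The comparison asks whether the mRNA of these regulators differed in dendritic cells after TCDD. None of the 13 member probe sets passed the test. Limma called 0 of 13 at an adjusted p under 0.05, against 0.0% of all probe sets. At an unadjusted p under 0.05 there were 2 of 13 (Nfkbie and Tnfaip3), against 13.1% of all probe sets. Both TCDD arrays lay below both DMSO arrays in 3 member probe sets (Rela, Nfkbie and 1 of Nfkbia), where 18.4% of all probe sets did. They lay above in 1 (Tnfaip3), where 19.0% of all did. Those shares depend on level. Of the members, 10 of 13 had a DMSO mean from 7 to 10, and of these 3 lay lower and 0 higher, where 36.7% of all probe sets in that range lay lower and 5.61% higher. The lower count of the members was thus not above that of probe sets of their level. The member differences, TCDD minus DMSO, had a median of -0.30 and ran from -0.90 to 0.45.

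**Figure D1:**
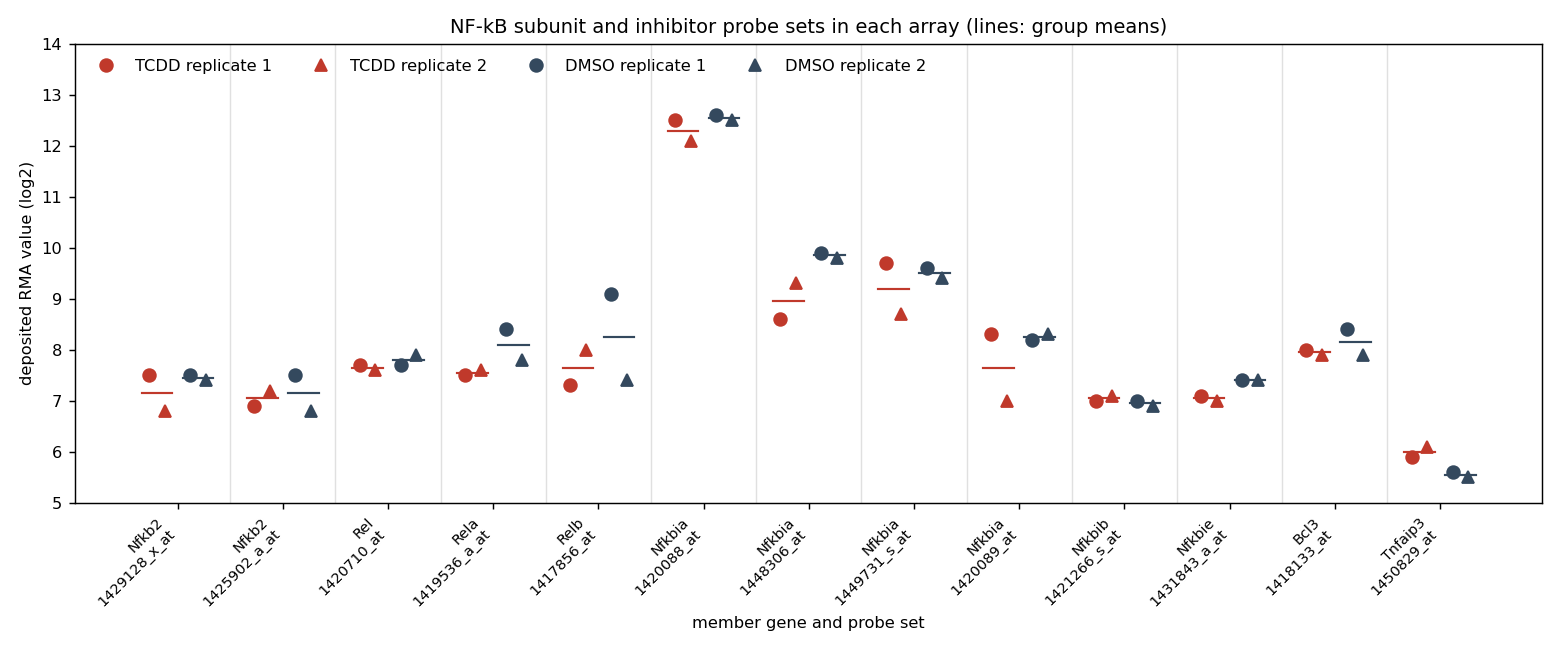
Deposited RMA values (log2) of the 13 member probe sets, with the 2 TCDD arrays left of the 2 DMSO arrays for each; circles are replicate 1, triangles replicate 2 and lines group means. The groups are apart in Rela, Nfkbie, Nfkbia 1448306_at and Tnfaip3, and the DMSO arrays are widest apart in Relb, at 9.1 and 7.4.

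Among the subunits, Rela lay lower in both TCDD arrays. Rela encodes p65, the subunit with a strong activation domain in the classical p50 and p65 dimer. Its probe set read 7.5 and 7.6 in TCDD arrays and 8.4 and 7.8 in DMSO arrays, so the groups did not overlap. The difference was -0.55 (SE 0.255, n = 2 per group), with an adjusted p of 0.444. Without DMSO replicate 1 the difference was -0.25, and without DMSO replicate 2 it was -0.85. After quantile normalization it was -0.30 and the groups overlapped, with TCDD replicate 2 at 7.775 and DMSO replicate 2 at 7.675.

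Relb encodes the partner of p52 in the alternative pathway and is needed for the development of some splenic dendritic cells. It read 7.3 and 8.0 in TCDD arrays and 9.1 and 7.4 in DMSO arrays. Both TCDD values fell within or just under the DMSO range. The difference was -0.60 (SE 0.749), adjusted p = 0.756, with a 95% interval from -2.97 to 1.77. The gap of 1.7 between the DMSO arrays was among the widest on the array: 41 of 22626 probe sets (0.181%) had a gap of at least that size. The direction of Relb rested on DMSO replicate 1: without it the difference was 0.25, and without DMSO replicate 2 it was -1.45. Without TCDD replicate 1 it was -0.25 and without TCDD replicate 2 it was -0.95.

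Rel encodes c-Rel, a subunit prominent in lymphoid and myeloid immune cells. It read 7.7 and 7.6 in TCDD arrays and 7.7 and 7.9 in DMSO arrays. The 4 arrays thus spanned 0.3 log2 units. The difference was -0.15 (SE 0.110), adjusted p = 0.556, with a 95% interval from -0.50 to 0.20. That interval leaves out a 2-fold change in either direction, but it measures only the spread between these arrays. Without DMSO replicate 1 it was -0.25 and without DMSO replicate 2 it was -0.05, and it was 0.10 after quantile normalization.

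Nfkb2 encodes p100, which is both an inhibitor and the precursor of the subunit p52. Its probe set 1429128_x_at, a design whose probes may bind other transcripts too, read 7.5 and 6.8 in TCDD arrays and 7.5 and 7.4 in DMSO arrays. TCDD replicate 2 alone was low there. The other, 1425902_a_at, read 6.9 and 7.2 in TCDD arrays and 7.5 and 6.8 in DMSO arrays. In this one both TCDD values lay between the DMSO values. The differences were -0.30 (SE 0.294) and -0.10 (SE 0.316), with adjusted p of 0.672 and 0.893. The 2 probe sets did not share which array was low. The first was -0.65 without TCDD replicate 1 and 0.05 without TCDD replicate 2. The second was 0.05 without TCDD replicate 1, -0.25 without TCDD replicate 2, 0.25 without DMSO replicate 1 and -0.45 without DMSO replicate 2.

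DMSO replicate 1 was above DMSO replicate 2 in Relb, Nfkb2 1425902_a_at, Rela and Bcl3, by 1.7, 0.7, 0.6 and 0.5. Over all probe sets, gaps of at least 0.5 between these arrays in either direction were found in 12.3%. Gaps were wider at the level of these members: the median size was 0.3 for DMSO means from 7 to 10 and 0.2 over all probe sets. DMSO replicate 1 was the highest array, with no tie, in 6 of 13 member probe sets, where it was so in 20.4% of all probe sets above the dim threshold. That share is not matched to the level of the members, and the 6 include Nfkbia 1420088_at and 1448306_at of the same gene. In Relb, Nfkb2 1425902_a_at, Rela and Bcl3 the gap between the DMSO arrays was wider than the difference between the groups.

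Tnfaip3 was the member that lay higher in both TCDD arrays. It encodes A20, a ubiquitin-editing enzyme that shuts off signalling upstream of the IκB kinase and is itself induced by NF-κB. Its single probe set read 5.9 and 6.1 in TCDD arrays and 5.6 and 5.5 in DMSO arrays. The groups did not overlap, and the whole difference lay near the dim threshold of 5.525. It was 0.45 (SE 0.110, n = 2 per group), or 1.37-fold, with a 95% interval from 0.10 to 0.80 before adjustment and an adjusted p of 0.379. The difference stayed above 0 under each alternative run, from 0.35 without TCDD replicate 2 to 0.55 without TCDD replicate 1.

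Nfkbie encodes IκBε, which retains dimers with c-Rel and p65. It read 7.1 and 7.0 in TCDD arrays and 7.4 and 7.4 in DMSO arrays. The replicates of each group were within 0.1 of each other. The difference was -0.35 (SE 0.0744, n = 2 per group), with a 95% interval from -0.59 to -0.11 before adjustment and an adjusted p of 0.349. It stayed below 0 under each alternative run, from -0.40 without TCDD replicate 1 to -0.16 after quantile normalization. Probe sets of this level were lower in TCDD arrays as a whole: the median difference of the 2984 probe sets with a DMSO mean from 7 to 8 was -0.20.

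Nfkbia encodes IκBα, the inhibitor that is degraded and made again within each round of NF-κB activation. The differences of its 4 probe sets were all below 0, but 1448306_at did not share the array pattern of the others. Probe set 1448306_at read 8.6 and 9.3 in TCDD arrays and 9.9 and 9.8 in DMSO arrays. It was the widest difference of the set at -0.90 (SE 0.294), adjusted p = 0.386, and TCDD replicate 1 was the lowest array. Without TCDD replicate 1 it was -0.55, without TCDD replicate 2 it was -1.25, and after quantile normalization it was -0.49 and the groups overlapped.

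The other probe sets of Nfkbia had TCDD replicate 1 at the level of the DMSO arrays. The brightest, 1420088_at, read 12.5 and 12.1 in TCDD arrays and 12.6 and 12.5 in DMSO arrays. In the gene lists below it stands for Nfkbia, which is thus counted there as overlapping. Probe set 1449731_s_at read 9.7 and 8.7 in TCDD arrays and 9.6 and 9.4 in DMSO arrays. Probe set 1420089_at read 8.3 and 7.0 in TCDD arrays and 8.2 and 8.3 in DMSO arrays. In all 3 the low array was TCDD replicate 2 and the groups overlapped. Their differences were -0.25, -0.30 and -0.60, with adjusted p from 0.556 to 0.757. Without TCDD replicate 1 the differences of these 3, in the same order, were -0.45, -0.80 and -1.25. Without TCDD replicate 2 they were -0.05, 0.20 and 0.05.

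TCDD replicate 2 thus lay below both DMSO arrays in 4 of 4 Nfkbia probe sets, and TCDD replicate 1 in 1 of 4. Over all probe sets TCDD replicate 2 lay below both DMSO arrays in 45.3% and TCDD replicate 1 in 23.7%. Bright probe sets were lower than that in general. The median of TCDD replicate 2 minus the DMSO mean was -0.50 for DMSO means from 8 to 9, -0.55 from 9 to 10 and -0.30 from 12 to 13. For TCDD replicate 1 it was -0.25, -0.30 and -0.15. Over all probe sets these medians were -0.10 and 0.05. The array with the low 1448306_at value is the one with the wide gap along Gapdh, for which the 3′ end and middle differed by 3.6. The part of that gap in the Nfkbia values was not tested, and probe positions were not used here. The probe sets most like 1448306_at over the 4 arrays, by distance between values centred on their own mean, were those of Vopp1 (distance 0.00), Ruvbl1 and Babam2 (0.0866 log2 units each) among 12450 candidates, of which 4 lay at or within that distance, so that 1 more is tied with them. They are given as a description only, since 4 arrays set the likeness.

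Nfkbib encodes IκBβ, a slower and more stable inhibitor than IκBα. It read 7.0 and 7.1 in TCDD arrays and 7.0 and 6.9 in DMSO arrays. This was the narrowest range of the set, at 0.2 log2 units. The difference was 0.10 (SE 0.0848), adjusted p = 0.609, with a 95% interval from -0.17 to 0.37. After quantile normalization it was 0.25, and it was 0.05 without TCDD replicate 2 and likewise without DMSO replicate 2.

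Bcl3 encodes a nuclear IκB-like protein that binds p50 and p52 dimers on DNA. It read 8.0 and 7.9 in TCDD arrays and 8.4 and 7.9 in DMSO arrays. DMSO replicate 1 alone was high. The difference was -0.20 (SE 0.216), adjusted p = 0.691. Without DMSO replicate 1 it was 0.05 and without DMSO replicate 2 it was -0.45.

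**Figure D2:**
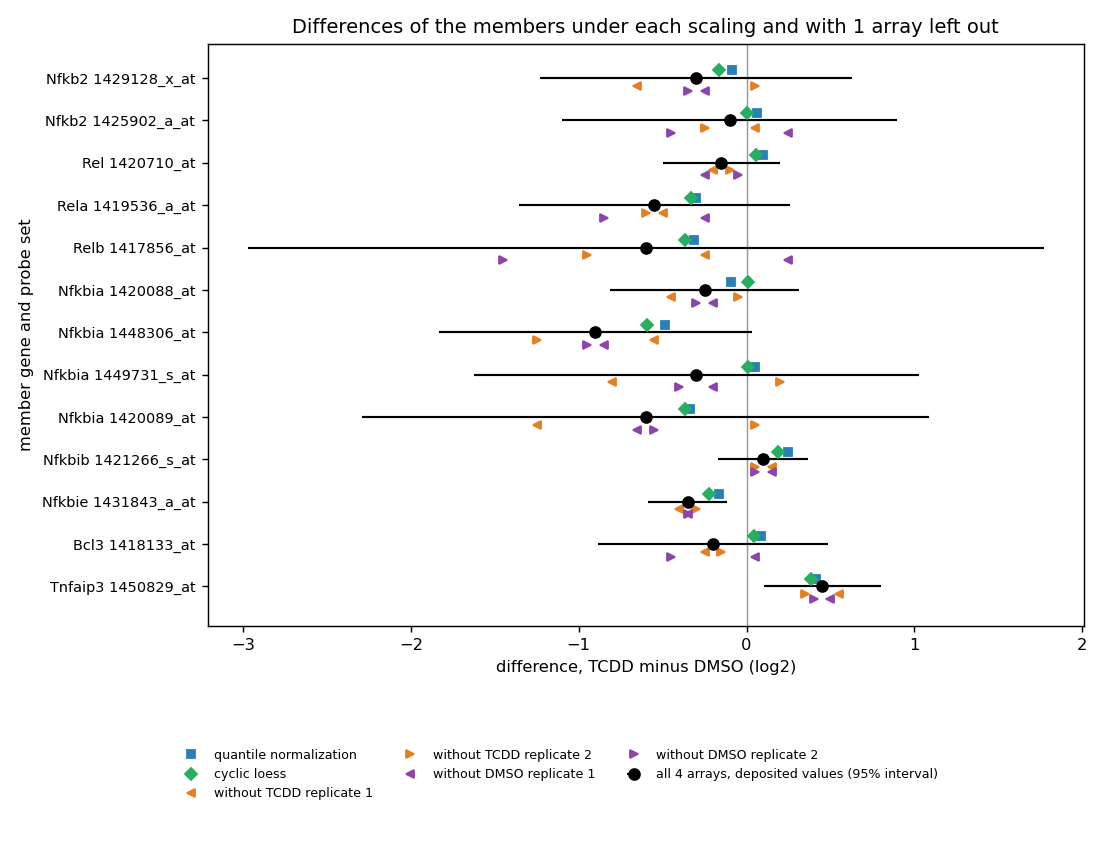
Differences, TCDD minus DMSO (log2), of the 13 member probe sets, with the 95% interval of the limma fit (black) and the values under other scalings or with 1 array left out (coloured). Tnfaip3 stays above 0 throughout, from 0.35 to 0.55, Nfkbie, Rela and Nfkbia 1448306_at stay below 0, and Relb spans -1.45 to 0.25.

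Part of the lower values in the members was shared with other probe sets of their level. Bright probe sets were lower in TCDD arrays in general: the median difference was -0.20 for DMSO means from 7 to 8, -0.35 from 8 to 9 and -0.45 from 9 to 10, while it was 0.05 from 5 to 6. The values over all probe sets were also narrower in TCDD arrays, with an SD of 1.62 and 1.58, against 1.71 and 1.73 in DMSO arrays. Level here is the DMSO mean, which also enters the difference, so the level and the difference are not independent. How far this moves the medians was not tested. Set against the median of their own level, 6 member probe sets lay below, 6 above and 1 at it. Farthest above was Tnfaip3, at 0.40 from it, and farthest below was Nfkbia 1448306_at, at -0.45. Relb stood at -0.25, Rela at -0.20 and Nfkbie at -0.15 from the median of their level. After cyclic loess, which removes such a trend, the median of the members was 0.0040 in place of -0.30.

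**Figure D3:**
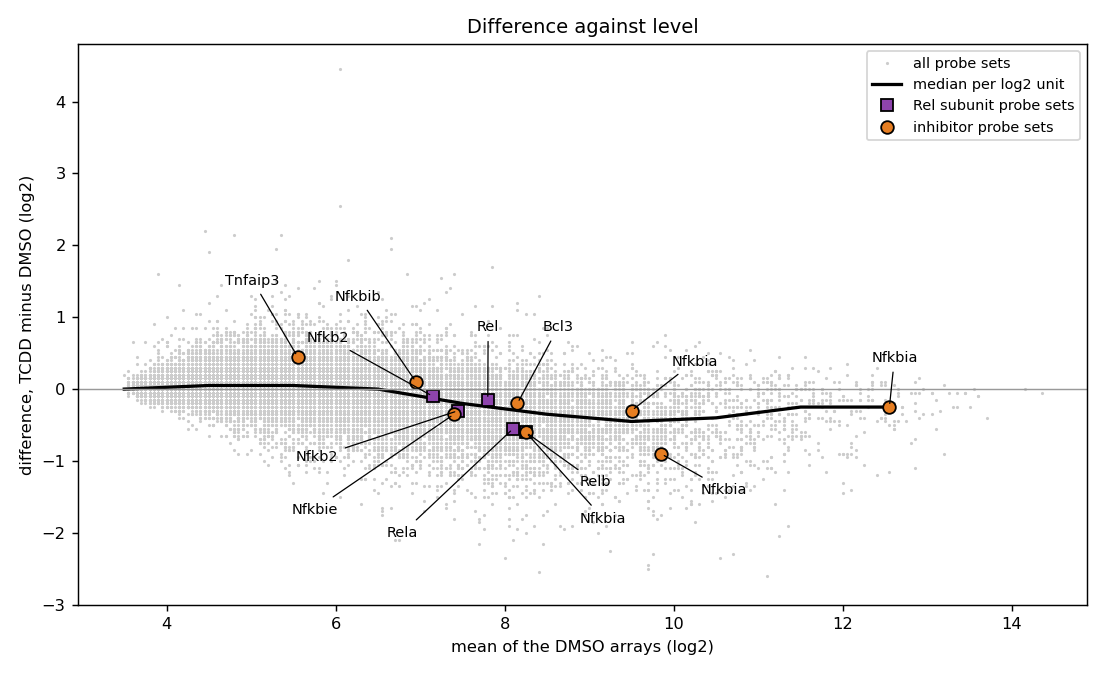
Difference, TCDD minus DMSO (log2), against the mean of the DMSO arrays (log2) for the 22626 probe sets tested (grey), with the median per log2 unit (line) and the member probe sets (squares for Rel subunits, circles for inhibitors). The median bends down above a level of 7, to -0.45 from 9 to 10, and the members scatter on both sides of it, from Tnfaip3 at 0.45 to Nfkbia 1448306_at at -0.90.

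The rest of the pathway was read from gene lists, with the brightest probe set of each gene. By that measure both TCDD arrays lay below both DMSO arrays in 19.4% of all genes and above in 20% (2481 of 12393 genes), and the median difference of all genes was 0.00. Among the 3973 genes with a DMSO mean from 7 to 10, where many listed genes lie, 35.7% lay lower and 5.94% higher, with a median of -0.30. No gene of these lists passed the adjusted test. Of the IκB kinase complex and the kinases above it 11 of 16 genes were measured, with 1 lower, 0 higher and a median of -0.10. Ikbkb, the catalytic subunit IKKβ, read 9.5 and 9.3 in TCDD arrays and 9.0 and 10.0 in DMSO arrays, and Ikbkg, the scaffold NEMO, read 7.4 and 6.7 in TCDD arrays and 6.8 and 7.2 in DMSO arrays. In both the groups overlapped. The gene without overlap was Tbk1, an IKK-related kinase, at 8.7 and 8.5 in TCDD arrays against 9.2 and 9.4 in DMSO arrays (difference -0.70, SE 0.131, adjusted p = 0.349).

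Of the adaptors and ubiquitin ligases 12 of 16 genes were measured, with 2 lower, 0 higher and a median of -0.175. Bcl10, which links antigen and lectin receptors to the kinase complex, read 6.0 and 8.0 in TCDD arrays and 8.6 and 8.6 in DMSO arrays. The low value was that of TCDD replicate 1, and the difference was -1.60 (SE 0.815, adjusted p = 0.444). Traf5, an adaptor of TNF receptors, differed by -0.45 (SE 0.137, adjusted p = 0.379). Of the deubiquitinases and partners of A20 8 of 10 were measured, with 1 lower and 0 higher and a median of -0.275. That gene was Tnip2, which encodes an A20-binding protein, at 5.6 and 5.6 in TCDD arrays against 6.3 and 6.1 in DMSO arrays (difference -0.60, SE 0.102, adjusted p = 0.349). Another A20-binding gene, Tnip1, read 9.0 and 8.2 in TCDD arrays and 8.8 and 8.9 in DMSO arrays, with overlap.

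Of the other IκB-like genes and nuclear regulators 7 of 10 were measured, with 4 lower, 1 higher and a median of -0.35. Nfkbiz encodes IκBζ, a nuclear cofactor of NF-κB. Its brighter probe set read 8.5 and 9.2 in TCDD arrays and 9.4 and 10.0 in DMSO arrays, a difference of -0.85 (SE 0.38, adjusted p = 0.444), while its other probe set differed by 0.05. Crebbp, a coactivator, differed by -0.65 (SE 0.212, adjusted p = 0.386). Nkiras1, a small GTPase-like protein that binds IκBβ, differed by -0.45 (SE 0.11, adjusted p = 0.379).

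Known targets of NF-κB, with 7 measured members among them, were measured for 37 of 39 genes. Of these 11 lay lower without overlap and 2 higher, with a median of -0.25. Without the members it was 10 of 30 lower and 1 higher, with a median of -0.225. Of the 21 targets with a DMSO mean from 7 to 10, 7 lay lower and 0 higher, with a median of -0.30. Il1b, the inflammatory cytokine, read 7.7 and 8.1 in TCDD arrays and 9.6 and 8.8 in DMSO arrays (difference -1.30, SE 0.369, adjusted p = 0.379). Xiap, an inhibitor of caspases, differed by -1.30 (SE 0.373), and the signalling adaptor Traf1 by -1.05 (SE 0.255), both with an adjusted p of 0.379. Other targets did not separate the groups: Tnf read 7.9 and 8.0 in TCDD arrays and 8.0 and 7.8 in DMSO arrays, and Icam1 read 10.3 and 9.9 in TCDD arrays and 10.2 and 10.3 in DMSO arrays. The maturation gene Ccr7 read 7.9 and 8.1 in TCDD arrays and 8.2 and 7.8 in DMSO arrays. Il6, Il12b, Il10 and Cxcl1 were dim.

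**Figure D4:**
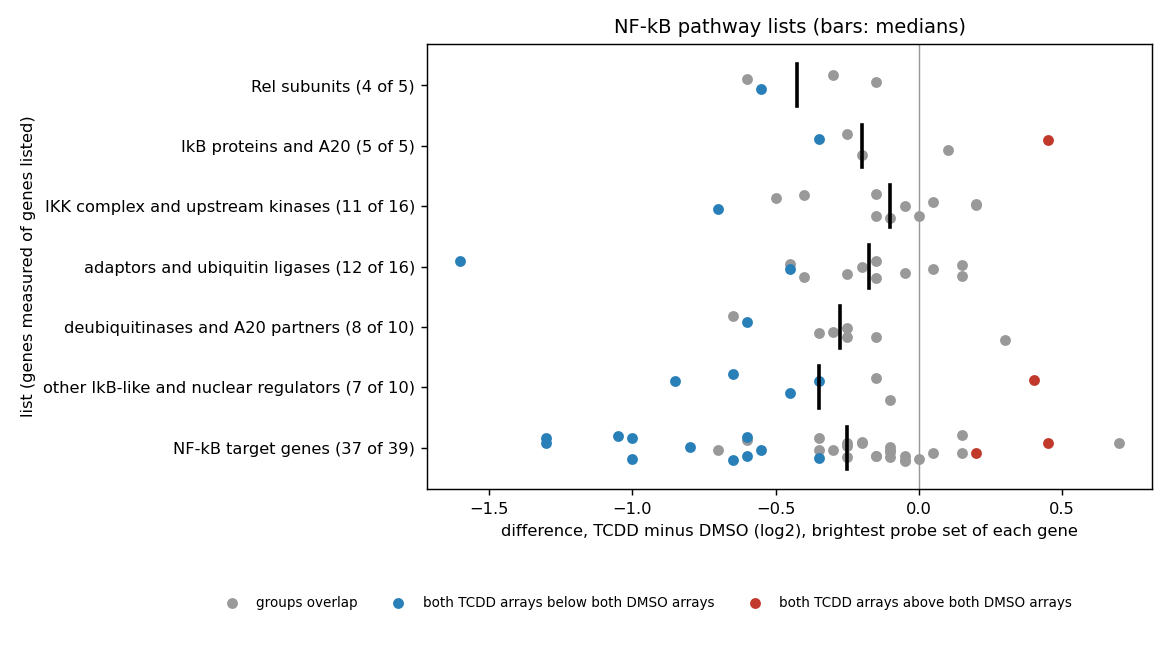
Difference, TCDD minus DMSO (log2), of the brightest probe set of each gene in 7 lists of the NF-κB pathway (points, coloured where the groups did not overlap), with list medians as bars. List medians lie from -0.10 for the IκB kinase complex and upstream kinases to -0.425 for the Rel subunits, and no point passed the adjusted test.

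Beside these values, 2 other groups bear on the setting. Of the AhR genes, the repressor Ahrr read 7.2 and 7.8 in TCDD arrays and 5.5 and 5.2 in DMSO arrays (difference 2.15, SE 0.28, adjusted p = 0.349), and Ahr itself read 8.6 and 7.7 in TCDD arrays and 8.8 and 9.7 in DMSO arrays (difference -1.10, SE 0.521, adjusted p = 0.444). The classical target Cyp1a1 was dim, as were Arnt and Nqo1. Tiparp read 9.3 and 8.3 in TCDD arrays and 8.3 and 8.3 in DMSO arrays. Cyp1b1 read 6.3 and 5.6 in TCDD arrays and 5.7 and 5.7 in DMSO arrays. In both the groups overlapped. Of the 7 genes of this list 1 thus lay higher without overlap and 1 lower, with a median of 0.15. Of 18 immediate-early genes, which respond quickly to stimulation, 11 lay lower in TCDD arrays without overlap and 0 higher, with a median of -0.775. The widest differences were those of the transcription factor genes Klf6 (-1.75, adjusted p = 0.349) and Jun (-1.35, adjusted p = 0.391) and of Ier2 (-1.30, adjusted p = 0.379). Of the 11 immediate-early genes with a DMSO mean from 7 to 10, 7 lay lower, where 35.7% of all genes in that range did. Macrophage and monocyte markers lay lower in 6 of 14 genes, with a median of -0.80, and in 5 of the 10 with a DMSO mean from 7 to 10. Their log2 levels summed to 114.0 and 115.4 in TCDD arrays and to 122.5 and 122.3 in DMSO arrays, and 0 of them were dim. B cell markers lay lower in 3 of 7 genes and higher in 1, with sums of 46.6 and 43.7 in TCDD arrays and 46.5 and 46.7 in DMSO arrays, and Ebf1 was dim. T and NK cell markers lay higher in 1 of 8 genes and lower in 0, with sums of 47.6 and 45.5 in TCDD arrays and 47.7 and 45.5 in DMSO arrays, and Cd3g, Cd8b1 and Ncr1 were dim. The part of these groups in the member values was not tested.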

How the data were processed

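Per the submitters' processing notes, the deposited values are RMA signals on the log2 scale; which arrays were normalized together, and with what software, no label says. Every deposited value was rounded to 0.1. Of 22690 probe sets 64 Affymetrix controls were left out of the tests. By the platform's annotation, with symbols updated through gene identifiers, 20380 of the 22626 tested have 1 symbol, 691 several and 1555 none. Members and lists were chosen with earlier results of these data known.

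TCDD was compared with DMSO with lmFit and eBayes of limma 3.58.1 (R 4.3.3, two-sided), with Benjamini-Hochberg adjustment over 22626 probe sets and a call at an adjusted p under 0.05. SEs are limma's moderated ones, and 95% intervals are not adjusted. An exact permutation test of 2 against 2 arrays cannot go below p = 0.333, so none was run. Every member is named, each with all its probe sets. Of each other pathway list, the AhR list and the immediate-early list up to 3 genes were named. They had the largest differences among genes without overlap and above the 40th percentile. Of the cell type lists, only the dendritic cell and neutrophil lists have genes named by this rule. Ikbkb, Ikbkg, Tnip1, Tnf, Icam1, Ccr7, H2-Aa, S100a8, S100a9, Elane, Tiparp, Cyp1b1 and the dim genes were named after their values were seen. Arrays give no counts, so their number limits the precision. Alternatives were quantile, cyclic loess and median scaling, removal of dim probe sets, other priors, a replicate block and leaving out each array. The replicate numbers gave no evidence of pairing: replicate 1 minus 2 correlated at -0.189 between the groups over probe sets.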

Additional observations from a re-analysis of the deposited data

Results flagged for a closer look

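TCDD replicate 1 was flagged because control probe sets outside the comparison showed a wider gap along the transcript than in both DMSO arrays. The 3′ probe set of Gapdh was above its middle one by 3.6 log2 units in TCDD replicate 1, against 1.5 and 2.1 in DMSO arrays. It was above the 5′ one by 5.4 in TCDD replicate 1, against 4.1 and 4.9 in DMSO arrays. The same gaps of beta-actin were 4.0 in TCDD replicate 1, against 1.9 and 2.1 in DMSO arrays, and 4.4 in TCDD replicate 1, against 4.0 and 3.7 in DMSO arrays. Their part in the member values was not tested. TCDD replicate 2 was at or below the higher DMSO value in each of these gaps.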

How the results depend on the processing

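Limma called 0 probe sets over all 22626 and 0 member probe sets under each alternative run, including the replicate block and the crossed replicate block, which was chosen after the data were seen; at an unadjusted p under 0.05 the replicate block gave 2047 probe sets and the main setting 2958. The crossed block gave 3081. The replicate block changed no call. The lowest adjusted p of a member among the refits giving one per probe set was 0.114, without TCDD replicate 1. The median of the members was -0.0875 after quantile normalization, 0.0040 after cyclic loess and -0.35 after median centring, and ran from -0.40 to -0.10 with 1 array left out. Members lower without overlap numbered 1 of 13 after quantile normalization (16.5% of all probe sets) and 5 after median centring (24.6% of all). With 1 array left out they numbered from 4 to 8: 8 without TCDD replicate 1 (45.3% of all), 4 without TCDD replicate 2 (23.7%), 4 without DMSO replicate 1 (28.2%) and 7 without DMSO replicate 2 (28.4%). Quantile normalization turned the direction of Rel (0.10), Bcl3 (0.0875), Nfkb2 1425902_a_at (0.0625) and Nfkbia 1449731_s_at (0.05). Cyclic loess did so for Rel (0.0544), Bcl3 (0.0458), Nfkbia 1420088_at (0.0117), Nfkbia 1449731_s_at (0.0081) and Nfkb2 1425902_a_at (0.0040). With 1 array left out the differences ran from -1.45 to 0.25 for Relb, -0.45 to 0.05 for Bcl3, -0.45 to 0.25 for Nfkb2 1425902_a_at, -0.65 to 0.05 for Nfkb2 1429128_x_at, -1.25 to 0.05 for Nfkbia 1420089_at and -0.80 to 0.20 for Nfkbia 1449731_s_at. Nfkbie, Rela, Tnfaip3, Nfkbib and Nfkbia 1448306_at kept their direction under each of them. The cause of these moves was not tested. A lone array is assumed to vary like the other group.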
